A study of Mus musculus with 6 samples.

Results

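The 3 PBS samples are the baseline of a study of 6 samples, in which RNA of MC38 cells from tumour-bearing livers was measured on Illumina mouse bead arrays. All samples came from CD11bDTR transgenic mice, in which the CD11b promoter drives the diphtheria toxin receptor in myeloid cells, so that the toxin can deplete them. The PBS mice received PBS intraperitoneally on days 7 and 9 after MC38 cells had been injected into the spleen, and their livers were collected on day 10. MC38 is a transplantable mouse colon adenocarcinoma line, and the cells were separated from the liver by fluorescence-activated sorting, with a gate that the sources used here do not give. The other 3 samples, from mice given diphtheria toxin, are not described here, and their arrays entered only an alternative that normalized all 6 arrays together. A gene was counted as detected where 1 of its probes had a detection p-value under 0.05 on all 3 PBS arrays, which 8457 of 19057 genes with a probe met (44.4%). The labels number the samples as replicates but do not state whether each came from a separate mouse, so the spread between them may be biological or technical.

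Cells that leave the spleen through the portal vein lodge in the liver sinusoids, among hepatocytes, Kupffer cells, endothelium and stellate cells. A carcinoma cell in this setting can keep the keratins and junction proteins of its epithelium of origin or can express mesenchymal genes such as vimentin in their place. Sorted tumour cells can also carry RNA of host cells that adhere to them or pass the gate, and RNA of macrophages, neutrophils, hepatocytes and fibroblasts can be recognised by genes those cells express at high level.

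Levels are normalized signals on the log2 scale, and values of 1 gene are given in the order of PBS replicates 1, 2 and 3. The level of a gene is that of its brightest detected probe. A rank orders probe signals, which also depend on how well each probe binds, and is not an order of transcript numbers. PBS replicate 2 was the dimmest array before normalization, with a mean signal of 311.3 against 473.1 and 449.2 on replicates 1 and 3. Median signals were 144.9, 135.0 and 153.8, and 18098, 16618 and 17492 of 45281 probes lay above background. Over the detected genes the Pearson correlation was 0.978 between replicates 1 and 2, 0.989 between replicates 1 and 3 and 0.981 between replicates 2 and 3. These values describe 3 arrays across genes that are not independent, and 1 group of 3 arrays allows no test. Levels of detected genes ran from 5.17 to 14.86, with a median of 8.29 and quartiles of 6.85 and 9.69.

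Most mesenchymal identity genes were detected in the PBS cells, and few epithelial ones. Of 22 mesenchymal genes with a probe 20 were detected, against 4 of 23 epithelial genes, and the share among all genes with a probe was 44.4%. Lgals1, encoding galectin-1, was at 14.28, 14.43 and 14.11 and ranked 33 of 8457. Axl, a receptor tyrosine kinase of motile cells, was at 12.82, 12.72 and 12.72, an SD of 0.06 (n = 3). Vim, the intermediate filament vimentin, was at 11.86, 12.17 and 12.10 and ranked 312. These 3 genes lay in the upper quartile of levels on every array and were less than 2-fold apart between arrays. Of the 20 detected mesenchymal genes 8 were among the 1000 brightest of the 8457 detected genes. None of the 20 was over 2-fold apart, against 3.39% of all detected genes, a share too low for this count to set the list apart. The median SD of the list was 0.22, against 0.18 over all detected genes. S100a6, a calcium-binding protein, averaged 12.81 ± 0.36 (SD, n = 3), and Twist1, a transcription factor of mesenchymal conversion, averaged 9.52 ± 0.38. The larger ranges in the list belonged to Itga5, the integrin alpha chain that binds fibronectin, at 8.79, 9.74 and 9.02, and to Fn1, fibronectin itself, at 9.86, 10.23 and 9.40. Whether tumour cells or host cells gave the mesenchymal signals was not tested.

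Most epithelial markers were at or near background. Epcam, the adhesion molecule of simple epithelia, and the keratins Krt18 and Krt19 were not detected on any PBS array, and Cdh1, encoding E-cadherin, was above background on 1 of 3. Krt8, the partner of Krt18, was detected at 5.75, 6.57 and 5.85, in the lowest quartile of detected genes. The other detected members were Tjp1, a tight junction scaffold, at 8.50 ± 0.17, Spint1, an inhibitor of membrane serine proteases, at 7.66 ± 0.56, and Pkp3, a desmosome protein, at 7.28 ± 0.26 (SD, n = 3 each). In all, 13 of the 23 epithelial genes did not exceed background on any array.

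**Figure D1:**
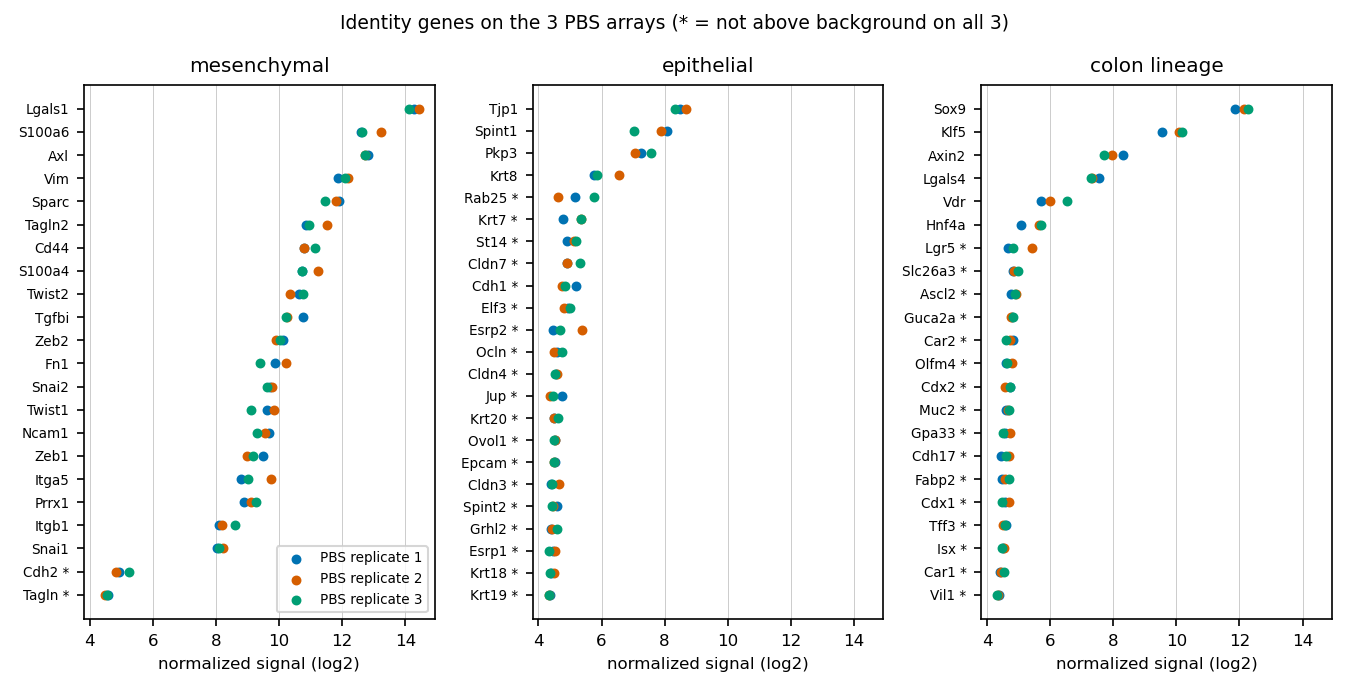
Normalized signal (log2, x axis) of the mesenchymal, epithelial and colon lineage genes with a probe, 1 point for each PBS replicate; an asterisk marks genes not above background on all 3 arrays. Of the mesenchymal genes 20 of 22 were detected, against 4 of 23 epithelial and 6 of 22 colon lineage genes.

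Of 22 colon lineage genes with a probe 6 were detected. The intestinal transcription factor Cdx2 and the brush border protein Vil1 were not above background on any PBS array. Sox9, a transcription factor of crypt progenitors that many other cell types also use, was at 11.87, 12.15 and 12.26 and ranked 295. Klf5, a transcription factor of proliferating crypt cells, was at 9.53, 10.10 and 10.17. Both were bright and less than 2-fold apart. Axin2, a target gene of WNT signalling, averaged 7.99 ± 0.29, and Lgals4, an intestinal galectin, averaged 7.39 ± 0.13, whereas Hnf4a and Vdr, both nuclear receptors of gut epithelium, were dim at 5.48 ± 0.34 and 6.09 ± 0.41 (SD, n = 3 each). Of the 7 markers set for the labelled colon carcinoma line, Vim and Krt8 were above background on all 3 arrays and Cdh1 on 1, whereas Epcam, Krt18, Cdx2 and Vil1 were not above it on any. The arrays alone do not identify the line.

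Among 18 genes recurrently altered in colorectal cancer that have a probe, 12 were detected. Ccnd1, cyclin D1, was at 13.19, 12.92 and 13.24 and ranked 110, and Ctnnb1, beta-catenin, averaged 11.80 ± 0.22. Nras and Tgfbr2, a small GTPase and a TGF-beta receptor chain, averaged 11.28 ± 0.15 and 11.21 ± 0.16 (SD, n = 3 each). Levels say nothing of mutations. Cdkn1a, the cell cycle inhibitor p21, was the one member over 2-fold apart, at 8.42, 9.63 and 9.07, highest on replicate 2.

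Genes of dividing cells were nearly all detected, 30 of 32 with a probe. The helicase subunits Mcm6, Mcm5 and Mcm4, which open DNA for replication, averaged 11.50 ± 0.20, 11.19 ± 0.18 and 11.15 ± 0.21 (SD, n = 3 each). None of the 30 was over 2-fold apart, against 3.39% of all detected genes. The largest range was that of Mcm7, another subunit of this helicase, at 8.91, 9.43 and 9.71. The mean over the list deviated from the mean of each gene by -0.12, 0.03 and 0.09 on the 3 arrays. The median SD of these genes was 0.20, against 0.18 over all detected genes. Of the 30 genes 16 were lowest on replicate 1 and 15 highest on replicate 3, against 32.4% and 30.4% of all detected genes.

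**Figure D2:**
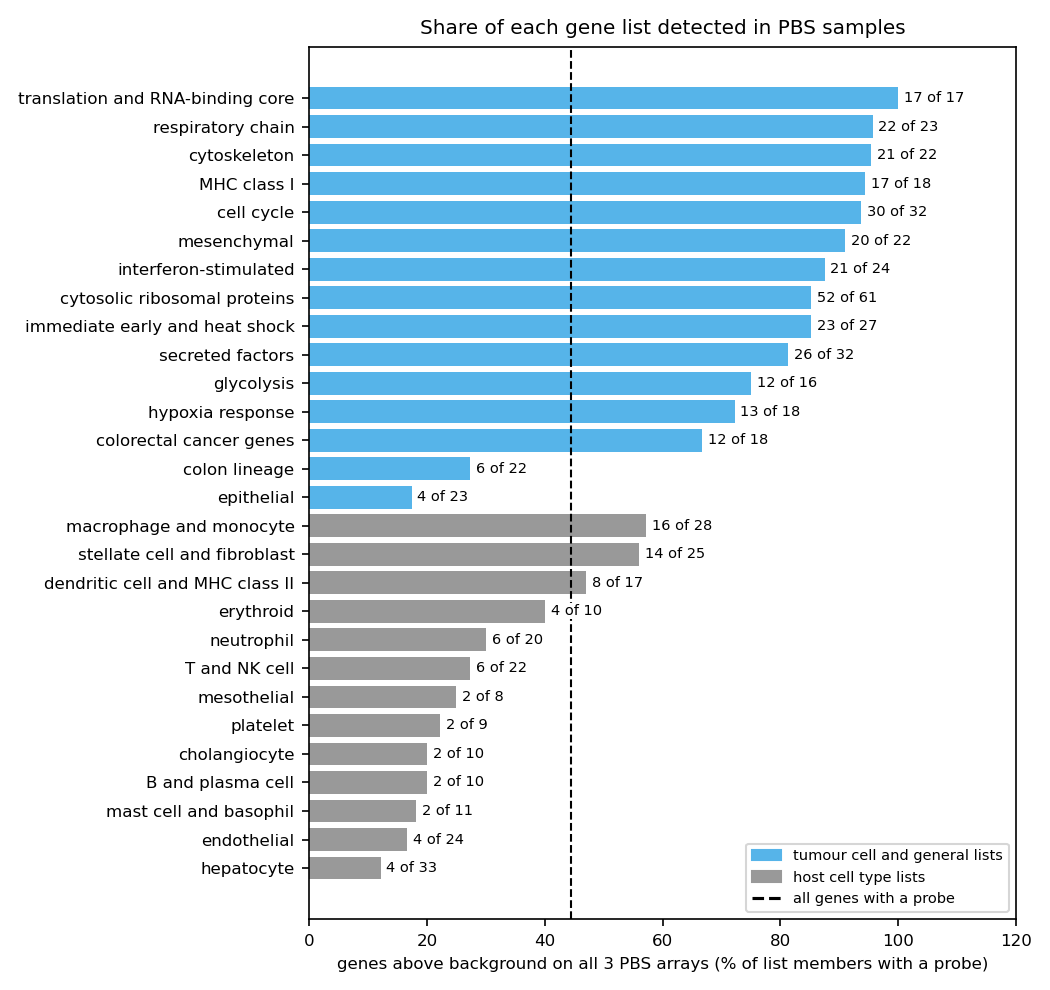
Share of the genes with a probe that were above background on all 3 PBS arrays (x axis, percent) for each gene list, with the counts beside the bars; the dashed line marks all genes (44.4%). The translation (17 of 17) and respiratory chain (22 of 23) lists have the highest shares, and the hepatocyte, endothelial and epithelial lists the lowest.

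The brightest signals came from genes of protein synthesis, histones and mitochondria. Of the 100 brightest genes 31 encoded cytosolic ribosomal proteins, 7 encoded histones and 5 were mitochondrially encoded. Rplp1, an acidic protein of the ribosomal stalk, was at 14.94, 14.66 and 14.88 and ranked 2. Rps29 and Rps2, of the small ribosomal subunit, averaged 14.80 ± 0.09 and 14.79 ± 0.15, and Rpl37, of the large one, averaged 14.77 ± 0.03 (SD, n = 3 each). Over the 52 of 61 ribosomal protein genes detected, the median level was 13.58 and 44 were among the 1000 brightest. The one member over 2-fold apart was Rpl22l1, a paralogue of Rpl22, at 6.57, 7.83 and 7.56. Ribosomal protein genes have many near-identical processed copies, which a probe cannot always tell apart.

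H2ac24, a core histone H2A gene, was the brightest of all at 14.93, 14.74 and 14.93. H2ac7, H2ac13, H2ac20 and H2ac10 were also among the 10 brightest genes. The H2A genes are nearly identical in sequence, so these signals cannot be assigned to single genes. CYTB and ND4, mitochondrially encoded subunits of the respiratory chain, averaged 14.60 ± 0.16 and 14.55 ± 0.16, and all 8 mitochondrially encoded genes with a probe were detected. Fth1, the ferritin heavy chain that stores iron, averaged 14.62 ± 0.03, and Actb, cytoplasmic actin, averaged 14.57 ± 0.23 (SD, n = 3 each).

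Other bright members were Eef1a1, the elongation factor that brings aminoacyl-tRNA to the ribosome, at 14.43 ± 0.11, Anxa2, a membrane-binding annexin, at 14.22 ± 0.05, and Atp5b, a catalytic subunit of ATP synthase, at 13.41 ± 0.16 (SD, n = 3 each). The 100 brightest genes had a median SD of 0.13, and 85 of them were among the 100 brightest on each array taken alone. None of them was over 2-fold apart, against 3.39% of all detected genes. Gene names cover only part of the brightest probes, since 49 of the 100 brightest detected probes had no single gene named here.

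Stress-response genes were bright in the PBS cells. Of 27 immediate early and heat shock genes with a probe 23 were detected, with a median level of 11.19 against 8.29 over all detected genes, and 13 were among the 1000 brightest. Egr1, a transcription factor induced within minutes of a stimulus, was at 14.20, 14.06 and 14.26 and ranked 38. Hspa8, the constitutive heat shock cognate chaperone, averaged 14.01 ± 0.13, and Dusp1, a phosphatase that shuts off MAP kinases, averaged 12.91 ± 0.14 (SD, n = 3 each). These 3 genes were close to level across the arrays.

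Genes of antigen presentation by MHC class I and of the interferon response were detected in high proportion, 17 of 18 and 21 of 24 with a probe. B2m, the light chain of MHC class I, was at 14.51, 14.46 and 14.43 and ranked 22. H2-K1 and H2-D1, the classical heavy chains, averaged 12.99 ± 0.22 and 12.93 ± 0.07 (SD, n = 3 each), and their probes can share signal with other class I genes. Irf1, a transcription factor induced by interferon gamma, was at 13.50, 13.01 and 13.64 and ranked 88. All 4 genes stayed within 2-fold, and over both lists 0 genes were over 2-fold apart, against 3.39% of all detected genes. The median SD was 0.21 in the MHC class I list and 0.17 in the interferon list, against 0.18 over all detected genes. Of the 17 MHC class I genes 13 were highest on PBS replicate 1 and 10 were lowest on replicate 2, against 34.3% and 42.5% of all detected genes. The array on which that list was highest became replicate 3 when arrays were scaled to a common median or the deposited normalized values were used.

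Oasl2, a homologue of the antiviral oligoadenylate synthetases, averaged 12.44 ± 0.18, and Ifit3, a binding partner of antiviral RNA sensors, averaged 12.28 ± 0.21 (SD, n = 3 each). Gbp2, a guanylate-binding protein that attacks pathogen membranes, had the largest range of the list, at 12.19, 11.25 and 11.84. Isg15, a ubiquitin-like modifier, was at 11.57, 11.25 and 11.30, and Cxcl10, a chemokine that attracts T cells, was at 11.19, 11.49 and 11.29. Isg15 and Cxcl10 lie outside the rule for named genes and were chosen after their values were seen, as carriers of the motif described next. The 250 bases before the start were searched on both strands for the core of the interferon-stimulated response element, GAAANNGAAA, which lay in 9 of 19 detected interferon-stimulated genes with a promoter entry (47.4%), in 241 of 6925 detected genes (3.48%) and in 936 of 27025 genes in all (3.46%). Stretches of 120 bases are shown for 3 of these genes as examples of the element in the list. The stretch of Isg15 begins 120 bases before the start, that of Ifit3 182 and that of Cxcl10 250. Their nearest matches begin 66, 122 and 213 bases before it. All come from RefSeq, GRCm38.p6, 5′ to 3′ on the strand of the gene, with the matches in capitals. Isg15 (chr4:156200819-156200938, minus strand) has 3 overlapping matches, Ifit3 (chr19:34583347-34583466, plus strand) has 2 matches that read on the opposite strand, and Cxcl10 (chr5:92349020-92349139, minus strand) has 1.
Isg15: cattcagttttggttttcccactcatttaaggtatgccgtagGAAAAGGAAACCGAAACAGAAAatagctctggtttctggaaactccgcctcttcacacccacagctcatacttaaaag
Ifit3: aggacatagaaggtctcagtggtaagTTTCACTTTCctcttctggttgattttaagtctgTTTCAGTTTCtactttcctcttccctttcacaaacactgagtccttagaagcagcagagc
Cxcl10: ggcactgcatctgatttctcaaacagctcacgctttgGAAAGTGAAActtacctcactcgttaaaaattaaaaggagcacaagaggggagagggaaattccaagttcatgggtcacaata
A match describes letters in the window and is not evidence of a bound site.

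Secreted factors with a probe were detected in 26 of 32 cases. Mif, macrophage migration inhibitory factor, was at 14.23, 14.16 and 14.46 and ranked 31. Cxcl1, a chemokine for neutrophils, was at 13.60, 13.53 and 14.20 and ranked 60. Ccl2, a chemokine for monocytes, was at 10.88, 12.27 and 11.66, lowest on replicate 1 and 2.62-fold higher on replicate 2. Mif and Cxcl1 were thus less than 2-fold apart. Ccl2 was among the 6 of 26 detected members over 2-fold apart (23.1%), against 3.39% of all detected genes. Il6, an inflammatory cytokine, was at 6.82, 7.84 and 7.94, and Il33, an alarmin, was at 7.93, 9.05 and 8.29. Angptl7, an angiopoietin-like protein named in the title of the series, was detected at 7.22, 6.72 and 6.12, with unscaled signals of 321.5, 178.4 and 201.4. It ranked 6581 of 8457, and its highest and lowest PBS arrays were 2.14-fold apart.

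Between-replicate spread was small for most genes. The SD over the 3 arrays had a median of 0.18, quartiles of 0.11 and 0.28 and a 95th percentile of 0.48. The highest and lowest arrays were over 2-fold apart in 287 of 8457 detected genes (3.39%) and over 4-fold apart in 2. Spread was larger for dim genes: 141 of 2327 genes with a mean level under 7 were over 2-fold apart (6.06%), against 0 of 126 genes at 13 or above. The 2 genes over 4-fold apart were both dim. Rps23rg1, a retrogene copy of Rps23, was at 5.19, 8.23 and 5.54, and Gins1, a subunit of the replication helicase complex, was at 7.66, 5.56 and 7.79. Replicate 2 was the odd array in both, high for Rps23rg1 and low for Gins1, and each rests on 1 detected probe. Without replicate 2, 86 detected genes were over 2-fold apart.

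**Figure D3:**
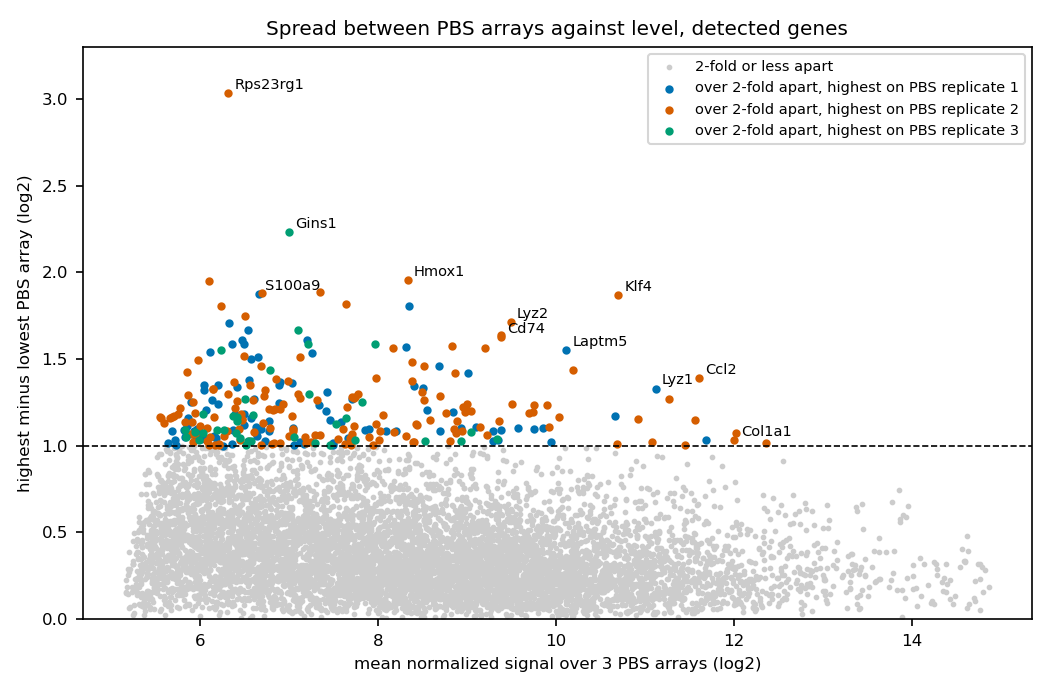
Difference between the highest and lowest PBS array (log2, y axis) against the mean normalized signal (log2, x axis) of each of 8457 detected genes; coloured points are the 287 genes over 2-fold apart, by the array on which they were highest. The large ranges lie at low and middle levels, and no gene at 13 or above passes the dashed line at 2-fold.

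For genes with more than 1 detected probe the highest and lowest arrays were compared between the brightest probe and the next. Of 64 genes with a second detected probe and a brighter probe over 2-fold apart, 38 were highest on the same array by both probes (59.4%), and 42 were lowest on the same array (65.6%). Over all 3030 genes with 2 detected probes, 43.0% were highest and 43.2% lowest on the same array by both. Of 1120 genes whose brighter probe was under 1.2-fold apart, 403 were highest on the same array by both (36.0%) and 425 lowest (37.9%). Without background correction 13 genes had a brighter probe over 2-fold apart, and 46.2% of them were highest on the same array by both.

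The genes over 2-fold apart were not spread evenly over the arrays. Of the 287 genes 154 were highest on PBS replicate 2, against 35.3% of all detected genes, and 109 were lowest on replicate 3, against 25.1%. Of the 109 genes 22 belonged to the macrophage, neutrophil or MHC class II lists, and these were all of the members of those lists over 2-fold apart. The share of 1 array depends on scaling. When arrays were scaled to a common median in place of quantiles, the median detected gene deviated by 0.39, -0.54 and 0.16 on replicates 1, 2 and 3, and 3870 genes were over 2-fold apart. Unless stated otherwise, orders of gene lists are given relative to that shift wherever this scaling is named.

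Most detected macrophage and monocyte genes differed by over 2-fold between the PBS arrays. Of 28 such genes with a probe 16 were detected (57.1%, against 44.4% of all genes with a probe). Of the detected ones 13 were over 2-fold apart, against 3.39% of all detected genes. Of the 16 genes 15 were lowest on PBS replicate 3, against 25.1% of all detected genes. Lyz2, the lysozyme of macrophages and neutrophils, was at 9.69, 10.25 and 8.54, with unscaled signals of 1227, 797 and 532. Laptm5, a lysosomal protein of blood cells, was at 10.83, 10.22 and 9.28. C1qc, a chain of the complement starter C1q, was at 8.30, 8.88 and 7.32. Replicate 3 was the lowest array for all 3 genes, by 3.27-fold, 2.93-fold and 2.96-fold from the highest array.

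Lyz1, a near-identical neighbour of Lyz2 whose probe can share its signal, was at 11.69, 11.31 and 10.36. Adgre1, encoding the macrophage antigen F4/80, was at 8.07, 7.44 and 6.76. Csf1r, the receptor for macrophage colony-stimulating factor, was at 6.66, 7.19 and 5.92, and C1qa was at 7.59, 6.89 and 6.22. The replicate with the highest value differed among these genes, while replicate 3 was lowest in each. Itgam, which encodes CD11b itself, did not exceed background on any PBS array, Ptprc, the pan-leukocyte antigen CD45, was above it on 1, and Cd68 has no probe named here. In all, 7 of the 28 genes did not exceed background on any array. The mean of the 16 genes deviated by 0.31, 0.37 and -0.68, and the highest and lowest arrays were 2.06-fold apart. Without replicate 2, replicates 1 and 3 were 0.98 apart on the log2 scale, and without replicate 3 the difference fell to 0.09. Relative to the shift under a common median the means were 0.33, 0.38 and -0.71. The list's summed unscaled signal over all 28 genes was 15789, 8288 and 8176, where the dimness of array 2 also enters. For the 22 mesenchymal genes with a probe it was 70029, 47133 and 61849. Background was not removed from these sums. In a bulk sample, fewer cells of a type and less RNA per cell cannot be told apart, and the part of host cells in these signals was not tested.

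Genes of antigen presentation by MHC class II followed the same order of arrays. Of 17 dendritic cell and MHC class II genes with a probe 8 were detected (47.1%, close to the 44.4% of all genes with a probe). Of these 5 were over 2-fold apart and 7 lowest on replicate 3, against 3.39% and 25.1% of all detected genes. Cd74, the invariant chain of MHC class II, was at 9.71, 10.04 and 8.41, and its second brightest probe was likewise highest on replicate 2 and lowest on replicate 3. H2-Aa and H2-Ab1, which encode chains of the class II heterodimer, were at 9.39, 9.12 and 8.29 and at 9.33, 9.45 and 8.21. All 3 genes were over 2-fold lower on replicate 3 than on the highest array. Batf3, a transcription factor of cross-presenting dendritic cells, was the exception and was lowest on replicate 1, and it lies outside the rule for named genes. Itgax, encoding CD11c, was not above background on any array.

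Neutrophil genes were detected in 6 of 20 cases with a probe, 4 of them over 2-fold apart, against 3.39% of all detected genes. S100a9, a subunit of calprotectin, was at 7.74, 6.39 and 5.86, and S100a8, the other subunit, was at 9.19, 8.18 and 7.85. Chil3, a chitinase-like protein of myeloid cells, was at 7.19, 6.66 and 5.58. PBS replicate 1 was highest and replicate 3 lowest for these 3 genes. Il1b, encoding interleukin-1 beta, was also over 2-fold apart and lowest on replicate 3, but highest on replicate 2. Of the 6 detected genes 4 were highest on replicate 1 and 2 on replicate 2. Mmp9, a gelatinase that tumour cells also express, was at 10.13, 9.83 and 9.88, close to level. Retnlg, a neutrophil-restricted gene, was not above background on any array, Ly6g has no probe named here, and 13 of the 20 genes did not exceed background on any array. The list deviated by 0.49, 0.03 and -0.51. Of all detected genes 25.1% were lowest on replicate 3 and 30.4% highest. Over the macrophage, MHC class II and neutrophil lists, 26 of 30 detected genes were lowest on replicate 3 and 0 were highest there. The exceptions were Fcgr1, Batf3 and Csf3r, lowest on replicate 1, and Mmp9, lowest on replicate 2.

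**Figure D4:**
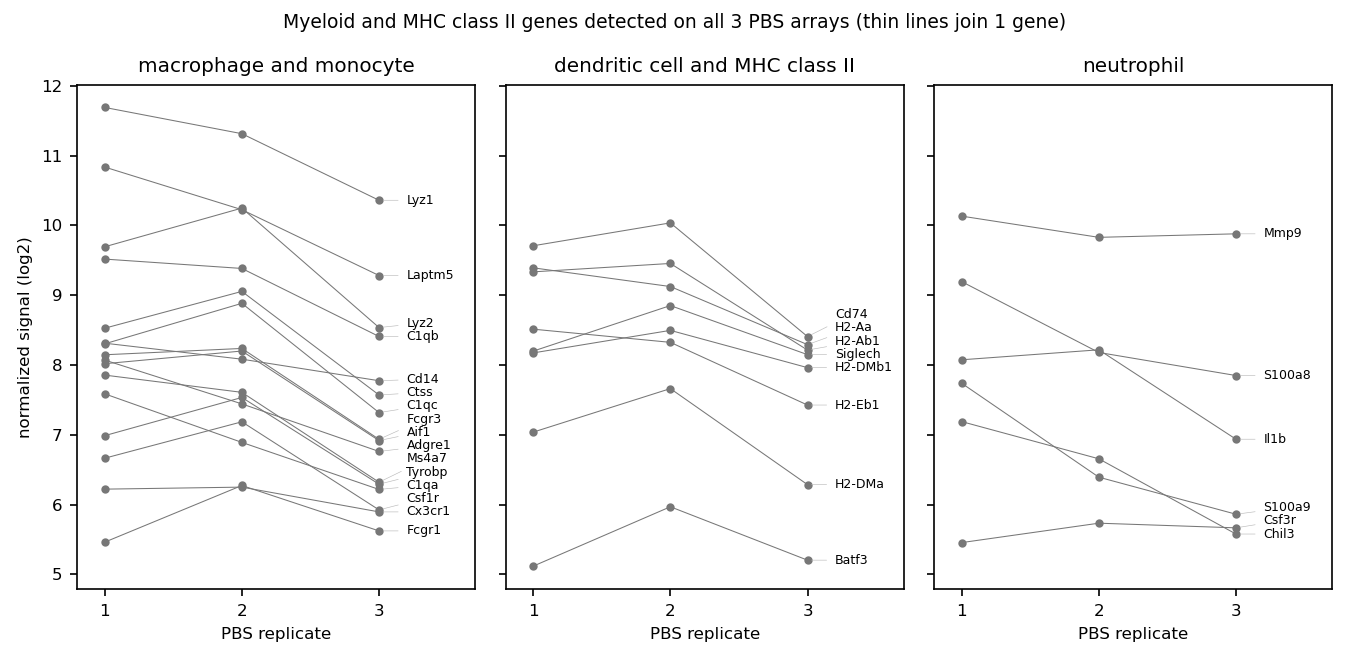
Normalized signal (log2, y axis) of each detected macrophage and monocyte, MHC class II and neutrophil gene on the 3 PBS replicates (x axis), with thin lines joining the values of 1 gene. Replicate 3 holds the lowest value in 26 of the 30 genes, against 25.1% of all detected genes.

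Other genes among the 16 with the largest ranges did not share 1 order of arrays. Ifi202b, an interferon-inducible DNA-binding protein, was at 7.72, 8.10 and 6.22, and Pld4, an endolysosomal exonuclease of myeloid and plasmacytoid dendritic cells, was at 6.68, 7.65 and 5.77. Fcgr2b, the inhibitory Fc receptor, was at 6.64, 7.32 and 5.57, and Ctsc, a lysosomal protease that activates granule enzymes, was at 9.14, 8.58 and 7.33. All 4 were lowest on replicate 3. Gbp2b, a guanylate-binding protein, was also lowest there at 7.48, 6.34 and 5.82, whereas Ctsk, a collagen-degrading protease, was lowest on replicate 2 at 7.24, 5.54 and 6.19. Arhgap45, a GTPase-activating protein of blood cells, was also lowest on replicate 2, and highest on replicate 3, at 7.20, 6.22 and 7.89.

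Hepatocyte transcripts were nearly absent from the detected set. Of 33 hepatocyte genes with a probe 4 were detected, and 23 were not above background on any PBS array. Alb, serum albumin, Apoa1, the main protein of high-density lipoprotein, and Serpina1c, an alpha-1 antitrypsin, were not above background on any array, and Ttr, transthyretin, was above it on 1. The detected members were Arg1 at 8.73, 9.58 and 8.84, Ass1 at 8.31, 8.95 and 8.71, Apoa2 at 5.73, 6.20 and 5.48 and Apoc1 at 5.40 ± 0.26 (SD, n = 3). Arg1 and Ass1 are urea cycle enzymes that other cells, including macrophages, also express, and the 2 apolipoprotein genes were in the lowest quartile of detected genes. The summed unscaled signal of all 33 genes, from which background was not removed, was 5696, 5049 and 5799.

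Endothelial genes were detected in 4 of 24 cases with a probe, and 14 were not above background on any array, among them Pecam1 and Cdh5, the adhesion molecules of endothelial junctions. The endothelial receptors Kdr and Stab2 were each above background on 1 array. Stab1, a scavenger receptor that macrophages share with sinusoidal endothelium, was the brightest at 10.44, 10.30 and 10.31. T and NK cell genes were detected in 6 of 22 cases. Prf1, the pore-forming protein perforin, ranked 153 at 13.08, 12.78 and 12.57, while Gzmb, a granzyme delivered with it, was not above background on any array and Cd3e and Cd3g, chains of the T cell receptor complex, were above it on 2 and 1. Foxp3, the factor of regulatory T cells, was at 8.98, 9.00 and 9.07, an SD of 0.05 (n = 3). Cd8b1, a chain of the CD8 co-receptor, was at 9.55, 9.66 and 9.28. Its second detected probe was dimmer, with a mean of 6.51, and was over 2-fold apart, highest on replicate 1 and lowest on replicate 3. Nkg7, a granule protein of NK and cytotoxic T cells, was at 6.34, 6.23 and 5.49, and Eomes, a transcription factor of these cells, averaged 7.16 ± 0.37 (SD, n = 3). Prf1, Foxp3, Cd8b1, Nkg7 and Eomes were each less than 2-fold apart by their brightest probe, and all of these but Cd8b1 rest on 1 detected probe. Klrd1, an NK cell receptor chain, was the member over 2-fold apart, at 6.41, 6.13 and 5.16.

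Of 10 erythroid genes with a probe 4 were detected. Hba-a1 and Hbb-bt, globin chains whose probes can share signal with their paralogues, were at 6.96, 6.75 and 5.77 and at 7.09, 6.82 and 5.98, lowest on replicate 3. Platelet, mast cell, B cell, mesothelial and cholangiocyte genes had 2 detected members each, of 9, 11, 10, 8 and 10 with a probe. All 5 shares were below the 44.4% of all genes with a probe. Gata2, at 9.87 ± 0.13, Xbp1, at 10.75 ± 0.10, and Aqp1, at 11.58 ± 0.23 (SD, n = 3 each), are expressed well beyond mast cells, plasma cells and bile ducts, and the mast cell markers Cpa3 and Mcpt4 and the mesothelial marker Upk3b were not above background on any array. Of the cholangiocyte markers Krt7 was above it on 2 arrays, and Krt19 and Epcam on none. Pf4, platelet factor 4, was above background on all 3 arrays at 7.08, 7.63 and 7.05, while Ppbp, another platelet chemokine, was above it on 1. Msln, mesothelin, which carcinomas can also express, was at 9.38, 10.11 and 9.79.

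Stellate cell and fibroblast genes were detected in 14 of 25 cases with a probe, and 8 of these were among the 1000 brightest genes. Bgn and Dcn, small proteoglycans of the extracellular matrix, were at 14.16, 13.58 and 13.85 and at 13.64, 13.73 and 13.34, with ranks of 54 and 70. Col6a1, a collagen VI chain, averaged 13.44 ± 0.33, and Col5a1, a collagen V chain, averaged 12.97 ± 0.15 (SD, n = 3 each). These matrix genes were bright on every array and within 2-fold. Col1a1, the main collagen I chain, was at 12.28, 12.39 and 11.35, and Lum, another matrix proteoglycan, was at 7.61, 6.79 and 6.26. Both were over 2-fold apart and lowest on replicate 3, as was Mfap4, a microfibril protein, at 6.81, 6.73 and 5.63. Pdgfrb, a receptor of stellate cells and pericytes, was at 8.15, 7.70 and 7.65, and Des, the stellate cell filament desmin, was not above background on any array. The list deviated by 0.21, 0.05 and -0.26, and relative to the shift under a common median the highest array became replicate 2, with 0.11, 0.17 and -0.29. Whether tumour cells or host fibroblasts gave these signals was not tested.

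Genes of glycolysis and of the hypoxia response had another order of arrays. Of the 12 detected glycolysis genes 10 were highest on PBS replicate 2 and 9 lowest on replicate 1, against 35.3% and 32.4% of all detected genes. Of the 13 detected hypoxia genes 10 were highest on replicate 2 and 10 lowest on replicate 1. Slc2a1, the glucose transporter GLUT1, averaged 11.08 ± 0.52 (SD, n = 3) and was 2.03-fold higher on replicate 2 than on replicate 1. Pkm, pyruvate kinase, was at 12.19, 13.10 and 12.35, and Pgk1, phosphoglycerate kinase, was at 11.52, 12.40 and 11.68. The brightest member, Gapdh, was nearly level at 13.51, 13.72 and 13.51.

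Ndrg1, a stress-responsive gene induced by low oxygen, was at 8.62, 10.25 and 9.30, and its second probe was also highest on replicate 2 and lowest on replicate 1. Ankrd37, a target of hypoxia-inducible factor, was at 8.23, 9.64 and 8.73, and Mxi1, an antagonist of MYC, was at 8.02, 9.14 and 8.18. Vegfa, the angiogenic growth factor, was at 11.24, 11.83 and 11.73. The first 3 were over 2-fold apart, and Vegfa was under 2-fold apart. Over both lists 20 of 25 genes were highest on replicate 2 and 0 lowest there, against 35.3% and 42.5% of all detected genes. The exceptions to the highest array were Pfkm, P4ha1 and Gbe1, highest on replicate 1, and Tpi1 and Kdm3a, highest on replicate 3. The glycolysis list deviated by -0.28, 0.37 and -0.09 and the hypoxia list by -0.31, 0.39 and -0.09. Replicate 2 was the dimmest array, and in unscaled signals Ndrg1 was not highest there, at 645, 800 and 825. The order depended on scaling. At a common median, with its shift left in, replicate 2 became the lowest array for both lists. The highest was then replicate 3 for glycolysis and replicate 1 for hypoxia. Only relative to the shift under a common median did replicate 2 stay highest and replicate 1 lowest. The means were then -0.37, 0.46 and -0.10 for glycolysis and -0.29, 0.37 and -0.09 for hypoxia. The part of the dimness of the array in this order was not tested.

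The core of the hypoxia response element, ACGTG, was searched on both strands in the 250 bases before the start, where it can lie within a CACGTG box. It lay in 8 of 11 detected hypoxia genes with a promoter entry (72.7%), in 1785 of 6925 detected genes (25.8%) and in 4998 of 27025 genes in all (18.5%). Stretches of 120 bases are shown as examples from the list, for Ankrd37 (chr8:45999851-45999970, minus strand), Egln3 (chr12:54204005-54204124, minus strand) and P4ha2 (chr11:54100804-54100923, plus strand). They come from RefSeq, GRCm38.p6, on the strand of the gene, with the match in capitals. The stretches of Ankrd37 and P4ha2 begin 120 bases before the start and that of Egln3 250. Their matches begin 6, 78 and 229 bases before it, in the same order. Ankrd37 has another match 241 bases before the start, outside its stretch. Egln3, an oxygen-sensing prolyl hydroxylase, was at 9.96, 10.75 and 10.39, and P4ha2, a collagen prolyl hydroxylase, was at 9.04, 9.95 and 9.32.
Ankrd37: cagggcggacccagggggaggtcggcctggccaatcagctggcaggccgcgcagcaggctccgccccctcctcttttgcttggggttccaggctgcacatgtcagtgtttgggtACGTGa
Egln3: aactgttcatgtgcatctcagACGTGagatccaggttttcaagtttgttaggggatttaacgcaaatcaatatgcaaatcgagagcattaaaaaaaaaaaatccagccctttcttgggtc
P4ha2: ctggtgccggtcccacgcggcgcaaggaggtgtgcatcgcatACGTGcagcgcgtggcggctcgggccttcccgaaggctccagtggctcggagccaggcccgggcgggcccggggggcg
The motif is short and frequent, and its presence describes these promoters only.

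Of the 16 genes with the largest ranges some others were highest on replicate 2. Hmox1, heme oxygenase, which degrades heme, was at 7.63, 9.58 and 7.80, and Klf4, a transcription factor of differentiation and stress, was at 9.97, 11.84 and 10.30. Ptgs2, the inducible cyclooxygenase, was at 6.75, 8.57 and 7.62. All 3 were lowest on replicate 1, with folds of 3.88, 3.65 and 3.53. Klf4 had a second detected probe with the same highest and lowest arrays, and the unscaled signals of Klf4 were 1441, 2313 and 1536, highest on the dimmest array. Klf4 belongs to the immediate early and heat shock list, whose 23 detected genes deviated by -0.17, 0.14 and 0.03 on average. Of these genes 11 were highest on replicate 2 and 9 on replicate 3, against 35.3% and 30.4% of all detected genes. Lowest on replicate 1 were 13 and lowest on replicate 2 were 8, against 32.4% and 42.5% of all detected genes. Atf3 and Fosb, immediate early factors, were highest on replicate 2, at 5.79, 7.31 and 6.40 and at 10.19, 11.20 and 10.68, whereas Egr2, of the same class, was lowest there at 8.16, 8.07 and 8.70 and lies outside the rule for named genes. Tpt1 and Slc25a4, at 5.52, 7.33 and 5.85 and at 5.63, 7.31 and 5.36, had dim probes, and Tpt1 encodes a protein that cells usually make in abundance.

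**Figure D5:**
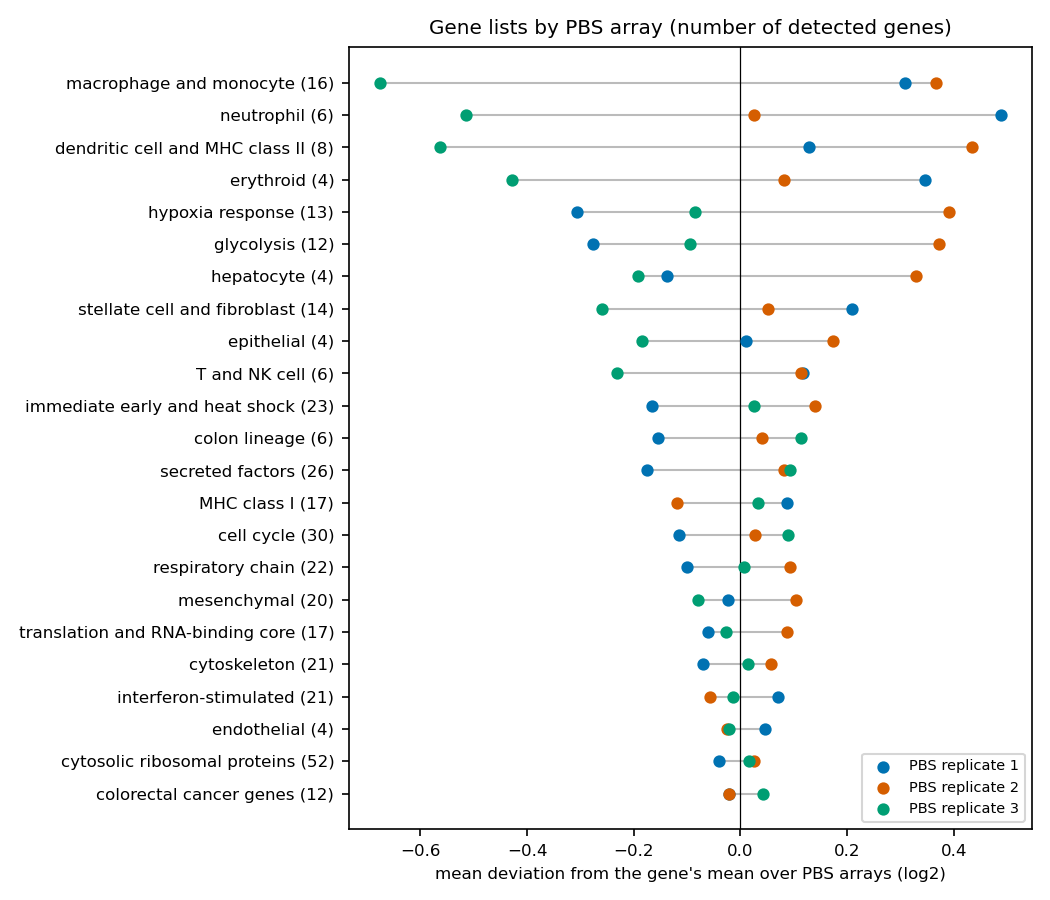
Mean deviation of each list's detected genes from their own mean over the 3 PBS arrays (log2, x axis), 1 point for each replicate, with the number of genes in brackets. The macrophage list reaches -0.68 on replicate 3, the hypoxia and glycolysis lists reach 0.39 and 0.37 on replicate 2, and the ribosomal protein and interferon-stimulated lists stay near 0.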

How the data were processed

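RNA of sorted MC38 cells was amplified with an oligo-dT based kit and labelled with biotin, per the labels' protocols. For every probe the authors deposited the averaged brightness of its beads, an intensity on a linear scale with no normalization, per the file headers. A deposited detection p-value stands beside each intensity. The authors also deposited normalized log2 values, which rank the probes of an array as the signals do (Spearman correlation of at least 0.999998) and have medians of 4.79, 4.95 and 4.84. Their normalization is not given in the sources used here, they are not centred per gene, and they served as an alternative only.

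Background of the 3 PBS arrays was estimated from the detection p-values and removed by normexp, an offset of 16 was added, quantiles were equalized and log2 was taken (function neqc, limma 3.58.1, R 4.3.3). Folds of dim genes are shrunk by the offset, and quantile scaling hides any change common to all genes. Of 45281 probes 34885 had 1 gene in the platform annotation, 18 several and 10378 none named here. Symbols were looked up by Entrez identifier for 34807 probes. Only probes with 1 gene were used by gene. Promoter sequences came from RefSeq, GRCm38.p6.

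No comparison between groups was made, and having 3 arrays limits the precision. The spread of a gene is its SD over 3 arrays and the difference between its highest and lowest array. Genes to name were drawn from the 20 brightest, the 16 with the largest range, of each of 28 lists up to 4 of the highest mean and up to 3 of the largest range, the cell type markers and Angptl7. Clone-type identifiers were not described. The members and lists were chosen with earlier results of these data known. Alternatives covered background correction, scaling, normalizing all 6 arrays together, the detection threshold, probe choice, the deposited values and leaving out each array. Figures were drawn with matplotlib 3.10.9.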

Additional observations from a re-analysis of the deposited data

How the results depend on the processing

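The spread depended on scaling and background more than the levels did. Genes over 2-fold apart numbered 287, with 118 at an offset of 50, 36 without background correction, 3870 at a common median, and 86 to 153 leaving out 1 array. The median SD over all detected genes, 0.183, became 0.508 at a common median. The glycolysis list's difference between highest and lowest array was 0.648, with 0.140 at a common median and 0.170 to 0.645 leaving out 1 array. For the hypoxia list these were 0.697, 0.275 and 0.218 to 0.696, and for the fibroblast list 0.469, 0.868 and 0.140 to 0.431. Leaving out 1 array gave 0.0855 to 1.03 for the macrophage list (1.04), 0.363 to 1.03 for the neutrophil list (1.00) and 0.301 to 0.986 for the MHC class II list (0.997), each lowest without replicate 3. Relative to the median of all detected genes, a setting chosen after seeing the data, the common median gave 1.09 for macrophage, 0.826 for glycolysis and 0.657 for hypoxia genes. In the 7 full alternatives, relative to that median, the macrophage, MHC class II, neutrophil, glycolysis and hypoxia lists had the same highest and lowest arrays. Without that adjustment, the glycolysis and hypoxia lists were lowest on replicate 2 at a common median. Probe agreement of 59.4% became 46.2% without background correction and 81.2% at a common median. The cause of these shifts was not tested. Of 1751 ranges recomputed for 176 named genes, 382 moved by 1 SD or more. No paired analysis was possible because only 1 group was described and no test was made. Dim genes are limited by signal over background, and 8417 of 19057 genes were not above it on any PBS array.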
